A study of Branchiostoma belcheri with 2 samples.

Results

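The miR-34 family of microRNAs (miRNAs, short RNAs that pair with messenger RNAs and lower their use) was described here in gill RNA of *Branchiostoma belcheri*, the Chinese amphioxus, a chordate without a backbone. Members were all array probes named miR-34 or miR-449 after the species prefix, with any letter or arm suffix. The rule found 27 of 1686 miRNA probes. Of these, 6 were for *B. belcheri* (prefix bbe), 5 for the Florida amphioxus *Branchiostoma floridae* (bfl), and 16 for 5 other species, namely a sea squirt (cin), zebrafish (dre), an acorn worm (sko), a sea urchin (spu) and a clawed frog (xtr). All 6 miR-449 probes were for the frog. The rule itself uses the name and no measured value.

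Gills came from adults given 15 µl of either phosphate-buffered saline (PBS, the control) or lipopolysaccharide (LPS, from the outer membrane of Gram-negative bacteria) at 1 mg/ml in PBS, injected into the body cavity. The LPS gills were taken at 12 h, and the control label gives no time. The control array (PBS) and the LPS array were the sole arrays, 1 per group, so differences between the arrays carry no replicate check and no p-value is given. How many animals gave RNA to an array is not stated in the labels.

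The miR-34 precursor is a hairpin, and the family is defined by its 5p strand, whose seed (bases 2 to 8) leads target recognition. In vertebrates miR-34b, miR-34c and miR-449 are abundant in multiciliated epithelia and help cells build motile cilia. The transcriptional targets of p53 include miR-34a. The gill bars of amphioxus bear ciliated cells that drive water through the pharynx. The array reads no messenger RNA, so markers of ciliated cells could not be set beside the miRNA signal, and the link to ciliated cells is background only.

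The 11 amphioxus sequences are shown first because the results separate them by sequence. They are written 5′ to 3′ as the array files list them, with bases 2 to 8 in capitals.
bbe-miR-34a-5p: uGGCAGUGuggauagcuggccgu
bfl-miR-34a: uGGCAGUGuggauagcuggccguuu
bbe-miR-34f-5p: uGGCAGUGcgaauagcuggc
bbe-miR-34c-5p: uGGCAGUGuuauuagcuggc
bbe-miR-34h-5p: aGGCAGUGugauuagcuugccg
bfl-miR-34b-5p: aGGCAGUGaugucaguuuguugu
bbe-miR-34g-5p: gCAGUGAUguuaguuguugu
bfl-miR-34d: uGGCAGUGugcgccuacagcuga
bfl-miR-34e: uGGCAGUGcgcgccuacagcuga
bbe-miR-34b-3p: aACAACUAacaucacugccaag
bfl-miR-34c: gCCCUCUAucaacgcugcccua

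Seed GGCAGUG stood at bases 2 to 8 in 17 of the 27 members, 8 of them amphioxus probes. The *B. belcheri* miR-34a sequence was contained whole in the *B. floridae* one, which was longer by 2 bases at its 3′ end. bbe-miR-34g-5p was closest to bfl-miR-34b-5p, at 4 edits (single-base changes, insertions or deletions). It starts inside the family seed, so its own bases 2 to 8 read CAGUGAU. bfl-miR-34d and bfl-miR-34e differed by 1 base, U9C, counting from 1 at the 5′ end. bbe-miR-34b-3p lay 15 edits from bbe-miR-34g-5p but 6 edits from its reverse complement, as the opposite arm of a hairpin can. The reverse complement of dre-miR-34b was as near, at 6 edits, and that of bbe-miR-34c-5p lay at 7. Its partner arm was thus not identified. bfl-miR-34c has no arm in its name. It lay 13 edits from bbe-miR-34c-5p and 7 from the reverse complement of that sequence, which was its nearest reverse complement among the *B. belcheri* members, and it lacks the family seed.

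Nearly all amphioxus members gave a detected signal on the control array, and the members of other species did so less fully. A probe counted as detected when its 2 repeat spots averaged more than a threshold set by the empty spots of the array, their 95th percentile (121.9 intensity units under PBS and 143.5 under LPS). On the control array 18 of 27 members were detected, 10 of 11 for amphioxus and 8 of 16 for other species. On the LPS array 11 of 27 were detected, 8 of 11 for amphioxus and 3 of 16 for other species. Over all 1686 probes the shares were 38.4% and 20.1%, and over all 260 amphioxus probes 78.1% and 53.8%. Over all 1426 probes for other species they were 31.2% and 14.0%, against 50% and 18.8% of the 16 members for other species. The lower detection of other species was thus seen across the array. Both arrays detected 10 members, the control array alone 8, the LPS array alone 1, and neither array the remaining 8. Among the 17 members with the family seed, 12 were detected under PBS and 8 under LPS. Fewer cells of a type, less RNA per cell and a lower signal of the LPS array as a whole cannot be told apart here. Calibration spots were lower on the LPS array too, with a median difference of -0.88 log2 units over 15 types.

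**Figure D1:**
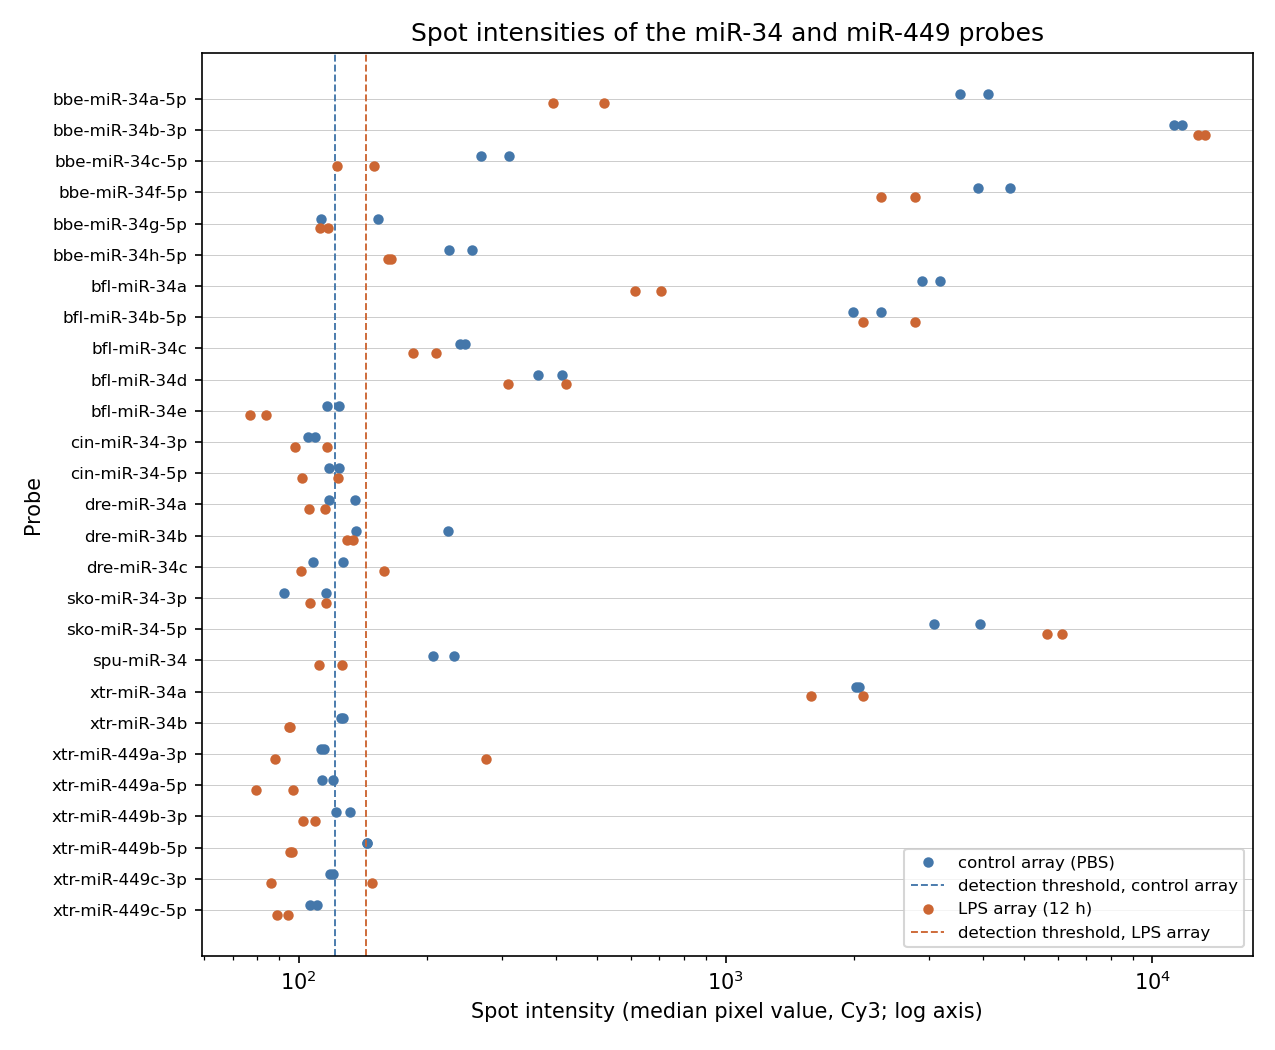
Spot intensity (log axis) of each of the 27 probes, with both repeat spots shown for the control array (blue) and the LPS array (orange); dashed lines mark the detection threshold of each array. bbe-miR-34b-3p lay between 11238 and 13260.3 on every spot, the miR-34a probes of both amphioxus species dropped to the left on the LPS array, and the miR-449 spots lay near or below the thresholds except 1 LPS spot of xtr-miR-449a-3p at 275.

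The miR-34 probes did not move as 1 block between the arrays. Intensities were background-corrected and quantile-normalized, and differences below are LPS minus control on the log2 scale of normalized intensity, with the SE over repeat spots, which is technical. To be counted, a probe had to be detected at least once, differ by 2-fold or more and keep its repeat spots apart between arrays. Of the 19 members detected on at least 1 array, 5 were higher, 1 was lower and 13 were not past this mark. All 6 that passed were detected on both arrays. By the same rule 10.5% of the 684 detected probes were higher and 10.5% were lower, against 26.3% and 5.26% of the members. Among the 204 detected amphioxus probes 16.7% were higher and 3.92% lower, and of the 10 detected amphioxus members 3 were higher and 1 was lower. Members close in sequence can bind the same RNA, so these are not separate measurements. The median difference was 0.00 over the 19 members and -0.10 over all detected probes. Over the 10 amphioxus members it was 0.22, and over all detected amphioxus probes 0.18.

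**Figure D2:**
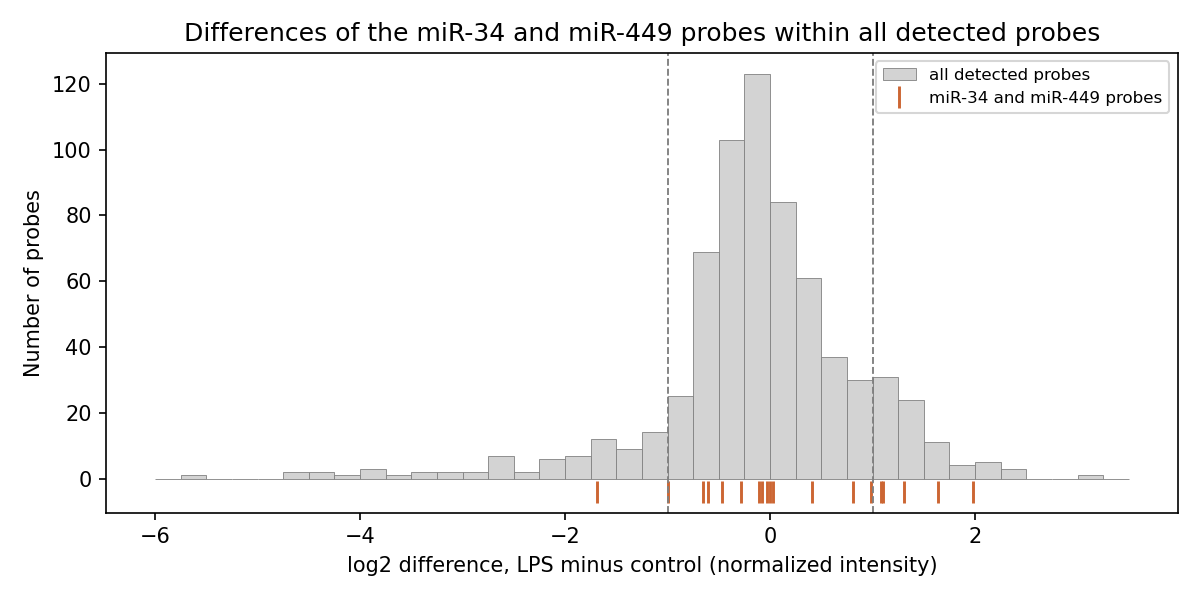
Histogram of the log2 difference, LPS minus control, for all 684 detected probes (grey bars, number of probes per class) with the 19 detected miR-34 and miR-449 probes as orange ticks under it; dashed lines mark 2-fold. The ticks span -1.69 to 1.98, and more of them lie past 2-fold on the higher side (5) than on the lower side (1).

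miR-34a, the paralogue with the same sequence start in both species, gave the lowest differences of the detected members in the main setting. The bbe-miR-34a-5p spots read 3535 and 4122 under PBS and 394 and 519 under LPS. All control spots were above all LPS spots. In normalized intensity it was 3.23-fold lower on the LPS array (log2 difference -1.69 ± 0.19). The longer bfl-miR-34a read 2886 and 3179 under PBS and 707 and 615 under LPS, again without overlap. Its log2 difference was -0.9995 ± 0.12, just under 2-fold, so it was not counted. Both stayed below 0 in each of 10 alternative settings, bbe-miR-34a-5p between -3.08 and -1.49 and bfl-miR-34a between -2.20 and -0.56. bbe-miR-34a-5p remained past 2-fold in all 10, and bfl-miR-34a passed it in 6. The gap between both probes was 0.69 ± 0.22 log2 units.

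bbe-miR-34f-5p shares its start and its inner stretch with miR-34a and went the other way in the main setting. Relative to bbe-miR-34a-5p it carries U9C and G11A and ends 3 bases earlier. Its spots read 3905 and 4627 under PBS and 2317 and 2781 under LPS. The raw spots were thus lower on the LPS array, while the normalized signal was higher by 0.81 ± 0.15, short of 2-fold. The sign of its difference turned with the scaling, to -0.28 under loess and -0.74 when the arrays were left unscaled. Its distance from bbe-miR-34a-5p was 2.50 log2 units in the main setting and 2.23 to 2.58 in the 10 alternatives. Scalings that shift a whole array by a constant cannot change such a gap. All settings also use the same arrays, so the narrow range is no replicate check.

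The remaining 5p paralogues of *B. belcheri* were dim. bbe-miR-34h-5p read 255 and 225 under PBS and 162 and 165 under LPS, and its normalized difference was 0.03 ± 0.08, with -0.38 under no normalization and 0.74 under median scaling. bbe-miR-34c-5p read 268 and 312 under PBS and 150 and 123 under LPS, where its mean was under the detection threshold. It was at least 1.56-fold lower there, a bound against the lowest detected signal of that array, though its difference turned to 0.16 under median scaling. bbe-miR-34g-5p, the probe that starts inside the seed, was near threshold on the control array (153 and 113) and not detected on the LPS array (112 and 117). Its difference was 0.00 ± 0.24, with overlapping spots, but 1.28 under median scaling, 1.04 under calibration spots and -0.55 in the authors' deposited table.

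The amphioxus probes named miR-34b, a *B. floridae* 5p probe and a *B. belcheri* 3p probe, were higher on the LPS array in the main setting. The letter does not tie them to vertebrate miR-34b. bfl-miR-34b-5p lay 6 edits from dre-miR-34a and 7 from dre-miR-34b. The 5p probe bfl-miR-34b-5p read 2314 and 1993 under PBS and 2778 and 2102 under LPS, so that the raw spots of the arrays overlapped. After normalization they did not, with log2 values of 10.46 and 10.30 against 12.19 and 11.86, a 3.12-fold higher signal (1.64 ± 0.18). Pixels of its first LPS spot varied by 37.4% of their median. Over spots of detected probes on that array the median was 9.67% and the 95th percentile 51.7%. The 3p probe bbe-miR-34b-3p read 11738 and 11238 under PBS and 13260.3 and 12789.8 under LPS, with LPS spots above control spots even before normalization. Its normalized signal was 2.15-fold higher (1.10 ± 0.07). Both stayed above 0 in each of the 10 alternatives but were under 2-fold with loess (0.70 for the 5p probe and 0.43 for the 3p probe) and close to 0 with no normalization (0.19 and 0.18). The probes differed from each other by 0.54 ± 0.19 log2 units in the main setting and by 0.00 with no normalization, median scaling or calibration spots. Those last settings differ by a constant and so must give the same gap. The probes are for different species and were not shown to be arms of the same hairpin.

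bfl-miR-34d and bfl-miR-34e, which share the seed but not the 3′ part of the other members, gave different results although only U9C separates them. bfl-miR-34d read 363 and 413 under PBS and 423 and 310.0 under LPS. It was counted as higher (1.08 ± 0.25), but its raw spots overlapped, and it was at 0.01 with no normalization and 0.76 from the second repeat spot alone. bfl-miR-34e read 124.4 and 116.5 under PBS and 84.0 and 76.9 under LPS, below threshold on both. bfl-miR-34c, which lacks the family seed, read 238 and 246 under PBS and 210 and 185 under LPS. Its normalized difference was 0.41 ± 0.13, and -0.12 with no normalization.

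**Figure D3:**
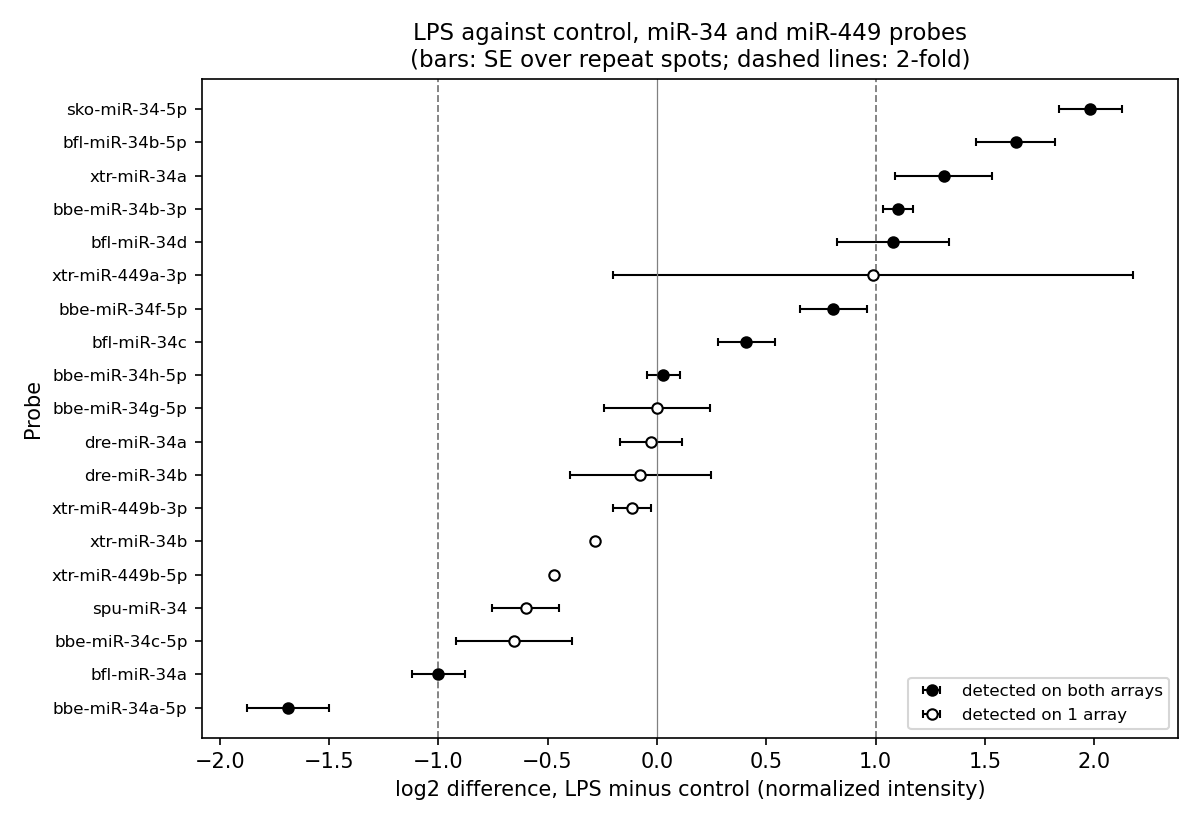
Log2 difference, LPS minus control, for the 19 probes detected on at least 1 array, ordered by value, with bars for the SE over repeat spots; filled points were detected on both arrays, open points on 1, and dashed lines mark 2-fold. bbe-miR-34a-5p (-1.69) and bfl-miR-34a (-0.9995) are lowest, and sko-miR-34-5p (1.98) and bfl-miR-34b-5p (1.64) lead the upper end. bbe-miR-34c-5p (-0.65), detected on 1 array, lies 0.35 ± 0.29 above bfl-miR-34a.

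The probes for other species that gave clear signal were for the acorn worm and the frog. Their sequences and those of their nearest relatives on the array are given because near neighbours in sequence differed in whether they were detected.
sko-miR-34-5p: uGGCAGUGugguuagcugguug
spu-miR-34: cGGCAGUGuaguuagcugguug
cin-miR-34-5p: aGGCAGUGuaguuagcuaguug
xtr-miR-34a: uGGCAGUGucuuagcugguuguu
dre-miR-34a: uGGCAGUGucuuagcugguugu

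sko-miR-34-5p, for a hemichordate, had the highest difference of the 19. It read 3953 and 3077 under PBS and 6138 and 5657 under LPS, with no overlap. The normalized signal was 3.95-fold higher (1.98 ± 0.15), and it was still 0.77 with no normalization. Its nearest amphioxus sequence on the array was bbe-miR-34a-5p at 4 edits, which was lower. Over the shared length, bbe-miR-34a-5p turns into it through A12U, C20U and C21U. The log2 differences of these probes were 3.67 ± 0.24 apart, and between 3.40 and 3.94 in the 10 alternatives. The difference of bfl-miR-34b-5p likewise lay 3.33 ± 0.26 above that of bbe-miR-34a-5p, and 3.02 to 3.54 above it in the alternatives. Again, scalings by a constant cannot change these gaps. Which amphioxus RNA gave the signal of the acorn worm probe was not measured.

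spu-miR-34 differed from sko-miR-34-5p by U1C and G10A. It read 232 and 206 under PBS and 127 and 112 under LPS, where it was not detected, and was at least 1.22-fold lower, though its difference turned to 0.42 under median scaling and 0.18 under calibration spots. cin-miR-34-5p, 3 edits from the acorn worm sequence, was not detected on either array (117.7 and 124.2, then 123 and 102). The frog probe xtr-miR-34a read 2018 and 2059 under PBS and 2104 and 1582 under LPS. It was 2.48-fold higher in normalized signal (1.31 ± 0.22), but no longer 2-fold when scaled by medians (0.98), by calibration spots (0.74) or by loess (0.39), and below 0 when unscaled (-0.14). The zebrafish probe dre-miR-34a, the same sequence without the last base, read 136 and 118 under PBS and 106 and 115 under LPS, so it was near threshold on the first and not detected on the second. Why dre-miR-34a and xtr-miR-34a differed was not tested. The other zebrafish and frog miR-34 probes were dim. dre-miR-34b read 136 and 224, then 134 and 130.1, and xtr-miR-34b read 126 and 127, then 95.3 and 94.8. dre-miR-34c, cin-miR-34-3p and sko-miR-34-3p were detected on neither array.

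Distance to the amphioxus sequences was at least 4 edits for each of these 16 probes. The sole probe at 4 edits, sko-miR-34-5p, was detected on both arrays. At 5 edits 2 of 4 probes were detected under PBS and 0 under LPS. At 6 edits 3 of 3 were detected under PBS and 1 under LPS, and at 7 edits 1 of 3 and 0. Beyond that 1 of 5 was detected on each array, xtr-miR-449b-3p under PBS and xtr-miR-449a-3p under LPS.

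**Figure D4:**
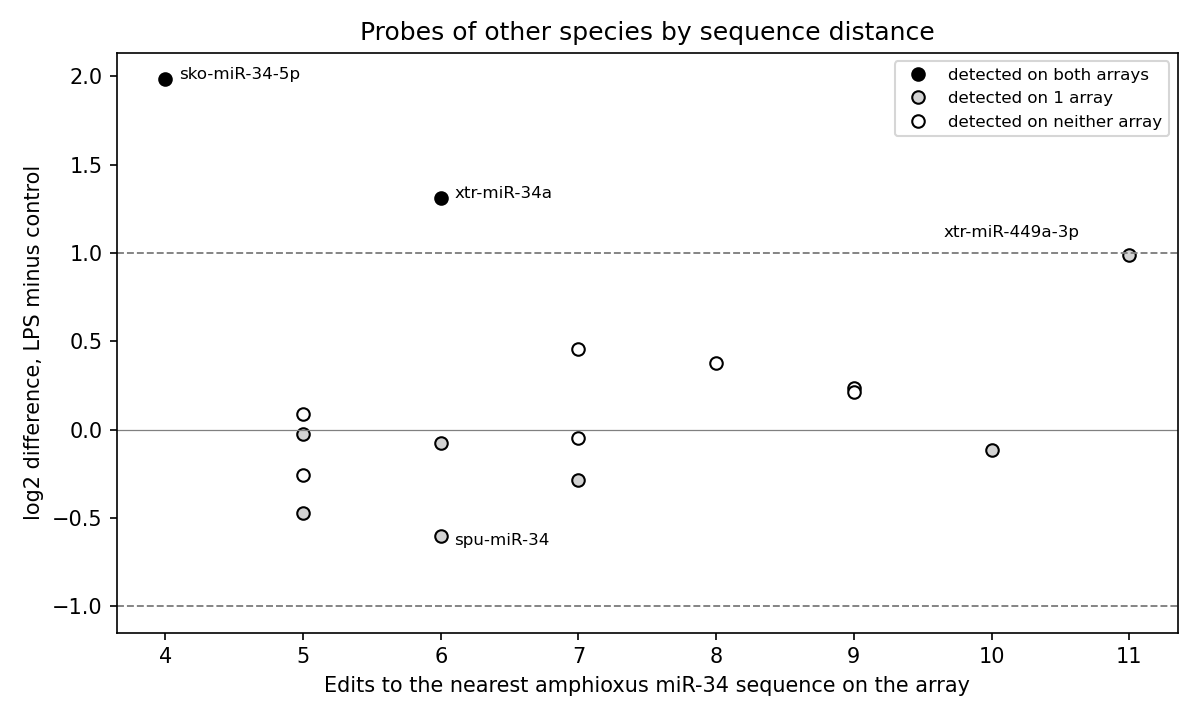
Log2 difference, LPS minus control, of the 16 probes for other species against the number of edits to the nearest amphioxus miR-34 sequence on the array; filled points were detected on both arrays, grey points on 1, open points on neither, and dashed lines mark 2-fold. The 2 probes detected on both arrays, at 4 and 6 edits, are the 2 past 2-fold.

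Frog miR-449, the vertebrate-type relative that shares the seed and is known for its abundance in multiciliated epithelia, gave no clear signal. Of its 6 probes 2 were detected under PBS and 1 under LPS. xtr-miR-449b-5p read 144.5 and 144.6 under PBS and 96.6 and 95.3 under LPS. xtr-miR-449a-3p was detected on the LPS array from 1 spot of 275 beside another of 87.9, and was at 115 and 113 on the control array. Its difference of 0.99 ± 1.19 was not counted, and the authors' deposited table gives 4.91 for the control array and 0.01 for the LPS array. The nearest *B. belcheri* sequence of the miR-449 5p probes lay 5 to 7 edits away.

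By the order of the differences, the 10 members detected on both arrays ran from bbe-miR-34a-5p through bfl-miR-34a, bbe-miR-34h-5p, bfl-miR-34c, bbe-miR-34f-5p, bfl-miR-34d, bbe-miR-34b-3p, xtr-miR-34a and bfl-miR-34b-5p to sko-miR-34-5p. The gaps between the first 4 exceeded 2 SE of the repeat spots, though each SE rests on 2 spots per array. From bfl-miR-34c upward no neighbours differed by more than 2 SE. Levels of different probes are not comparable on an array, so the probes were not ordered by intensity.

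**Figure D5:**
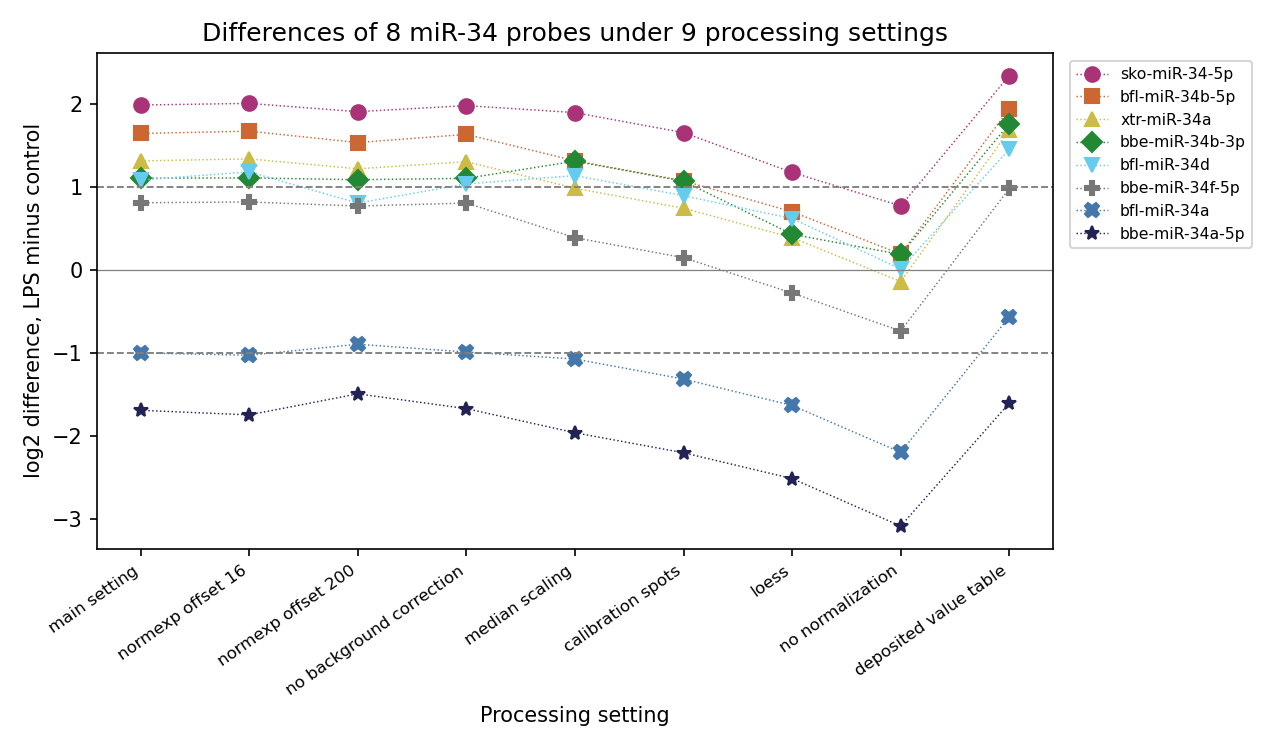
Log2 difference, LPS minus control, of 8 miR-34 probes under the main setting and 8 of its alternatives; dashed lines mark 2-fold. With no normalization the 8 probes lie between -3.08 and 0.77, all below their main values, and median scaling raises some and lowers others. Under all of these, bbe-miR-34a-5p and bfl-miR-34a stay below 0 and below the other 6 probes (9 settings).

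Scaling between the arrays set how many members passed 2-fold on the higher side. The split of 5 higher and 1 lower became 9 and 2 under median scaling, where 45.9% and 8.33% of all detected probes were higher and lower. Calibration spots gave 6 and 2 (25.9% and 9.21% of all), loess gave 1 and 2 (4.39% and 12.4%), and unscaled arrays gave 0 and 2 (3.65% and 18.7%). The median of all detected probes moved with it, from -0.10 to 0.94 under median scaling, 0.70 under calibration spots and -0.18 unscaled. The median of the members lay 0.10 above that of all probes in the main setting and 0.06 above it in those 3 alternatives, which differ from each other by a constant only. It lay 0.19 above under loess, 0.29 above from the second repeat spot and 0.67 above over probes detected on both arrays, and in the authors' deposited table the order turned (-0.14). Perfect-match calibration spots were lower on the LPS array, with a median difference of -0.88 log2 units over 15 types (-2.64 to -0.02). Their part in the results was not tested.

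Probes outside the family name gave no further copy of the sequence. None of them lay within 4 edits of an amphioxus miR-34 sequence, or of its reverse complement, and 1 lay at 5 edits. The seed GGCAGUG was shared by 6 of them, all for tunicates and 6 to 8 edits from the nearest amphioxus miR-34. Of these, cin-miR-4091-5p was detected on the control array (mean 128) and not on the LPS array (85.8). cin-miR-4008b-5p, odi-miR-1483-5p, odi-miR-1487, odi-miR-1490a and odi-miR-1490b (odi, a larvacean) were detected on neither, at means of 90.8 to 115.

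Other miRNAs with roles near those of miR-34 behaved variously. miRNAs linked with p53 in mammals (miR-15, miR-16, miR-107, miR-145, miR-192, miR-194 and miR-215) had 32 probes, of which 4 were detected and 0 were past 2-fold. The largest differences among them were 0.47 ± 0.25 for xtr-miR-15a and -0.40 ± 0.04 for dre-miR-16c, with a list median of -0.07. miRNAs linked with cilia or ciliated epithelium (miR-129, miR-200, miR-141, miR-429 and miR-8) had 31 probes, with 23 detected, 1 higher and 5 lower, and a median of -0.41, against -0.10 over all detected probes. The shares were 4.35% higher and 21.7% lower, against 10.5% each over all detected probes. All 5 lower probes were among the 15 detected probes of the list for other species. Over all detected probes for other species 13.3% were lower. The 1 higher probe was bbe-miR-200a-3p (1.35 ± 0.23), named after its value was seen. Of the 8 detected amphioxus probes in the list, 1 was higher and 0 were lower. Over all detected amphioxus probes 16.7% were higher and 3.92% lower, so the 0 of 8 is close to that share. The largest differences in that list were those of dre-miR-200a (-2.003 ± 0.14) and spu-miR-200-3p (-1.84 ± 0.46). No probe was named miR-277 or miR-317, the neighbours of miR-34 in insect genomes. As for families known from other tissues, detection on at least 1 array held for 24 of 33 endoderm, 20 of 34 muscle, 12 of 22 neural and 2 of 10 blood probes. Over all probes it held for 684 of 1686. Detection on the control array alone held for 14 of these 20 muscle, 6 of the 24 endoderm, 4 of the 12 neural and 1 of the 2 blood probes. Over all detected probes it held for 345 of 684. Probes of a family can bind the same RNA, so these counts do not measure tissue content.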

How the data were processed

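Gill RNA was extracted, tailed with poly(A) and joined to a Cy3-stained tag, per the labels' protocols. The 2 arrays (control and LPS) were grouped by the agent named in the labels. Per the file headers, the deposited scanner files hold the median pixel intensity of 3968 spots on a linear scale and list no background values. No member exceeded 13260.3 intensity units, against a ceiling of 65535. The authors' deposited table gives each probe a processed intensity per array, and its background and scaling steps are not stated in the labels.

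Normexp background correction (limma 3.58.1, R 4.3.3, offset 50) used every spot. Log2 values of the 3372 miRNA spots were then quantile-normalized, and the mean of both repeats was taken per probe. Edit distances came from edlib. The procedure was run on simulated arrays that had equal spot noise and no overall shift between them, unlike the real arrays. That run does not show how the calls behave under such differences. With 1 array per group no test was made, and the number of arrays limits the precision. Alternatives changed the offset, the scaling, the thresholds, the repeat spot or the source table. Members and lists were chosen with earlier results of these data known. By the naming rule, all members could be named, with probes close to them in sequence, the 2 largest differences of a list, and the 3 amphioxus probes nearest in difference to the highest and the lowest amphioxus member.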

Additional observations from a re-analysis of the deposited data

How the results depend on the processing

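The count of members past 2-fold (6) was 11 with median scaling, 3 with loess (span 0.4), 2 with no normalization, 10 in the deposited table (log2 of value plus 1), 10 at a 1.5-fold threshold and 3 at a 3-fold threshold. The higher count (5) was 9, 1 and 0 in the first 3 of these and 2 at 3-fold. The lower count (1) was 2 with a normexp offset of 16, median scaling, loess, no normalization or calibration spots, 3 from the second repeat spot alone, 5 in the deposited table and 4 at 1.5-fold. The median difference (0.00) was 1.00 with median scaling, 0.76 with calibration spots, 0.17 from the second repeat spot, -0.55 in the deposited table and 0.94 over members detected on both arrays. Among the 6 counted members, xtr-miR-34a alone changed sign, to -0.14 with no normalization. Over all 19 detected members, 31 of the 190 values under alternatives had the other sign, from 13 members. Some of these were not near 0 in the main setting, such as bbe-miR-34f-5p (0.81, to -0.74 with no normalization) and xtr-miR-449a-3p (0.99, to -2.55 in the deposited table). Detection fell to 15 members under PBS and 8 under LPS at the 99th percentile of empty spots. The differences between pairs of members were added after the data were seen. No paired analysis was possible because each group had 1 array. Dim probes near the threshold can show only small differences.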

Other observations

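Near-identical probes elsewhere on the array give a scale for the miR-34a pairs of amphioxus and of the vertebrates, in a comparison chosen after the values were seen. The array holds 79 other pairs in which one sequence is the other plus 1 base at its 3′ end. In 31 of them both probes were detected on both arrays, and their log2 differences were a median of 0.36 units apart (0.01 to 3.96). With 2 extra bases there were 24 other pairs, 7 of them detected throughout, a median of 0.73 apart (0.01 to 4.42). The gap of 0.69 between bbe-miR-34a-5p and bfl-miR-34a lay near that median. The gap of 1.34 between dre-miR-34a and xtr-miR-34a, with 1 extra base, was above the median of 0.36, though dre-miR-34a was not detected on the LPS array. Gaps of 0.69 or more occurred in 6 of the 31 and 4 of the 7 pairs. In level, dre-miR-34a and xtr-miR-34a were further apart, with control array means of 126.8 and 2038. Of the other pairs with 1 extra base, 24 had a probe at 1023.8 or more on that array. The dimmest partner in those pairs was bbe-miR-33-5p at 586.9, so none had a partner as dim as dre-miR-34a. Which RNA gave the signal of xtr-miR-34a was not measured.

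The amphioxus probes outside the family with the most similar difference, among 131 detected on both arrays, were bfl-miR-705 (1.62), bfl-miR-4874-3p (1.57) and bfl-miR-29a-5p (1.52) for bfl-miR-34b-5p. For bbe-miR-34a-5p they were bbe-miR-4877-3p (-1.61), bbe-miR-190-3p (-2.24) and bbe-miR-92d-3p (-2.26). Likeness here is the absolute gap of log2 differences over 2 arrays, which many probes can share.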
